A study of Mus musculus with 10 samples.

Results

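Solute carrier genes were compared between Helios+ and Helios− regulatory T cells (Treg cells) of the mouse. The members were all genes of the deposited table whose symbol begins with Slc and a digit, without the glucose carriers Slc2a1 and Slc2a3 and the lactate carrier Slc16a3. This rule took 208 of the 13252 genes, from 43 families, after the 3 genes were left out of 211. The Helios+ group was sorted as CD4+RFP+GFP+ and the Helios− group as CD4+RFP+GFP−, and 5 libraries were made from each. By the sample labels GFP reports Helios, a zinc finger transcription factor encoded by Ikzf2, but what RFP marks is not stated, nor the age or strain of the mice. The design text of the series names wild-type and knockout cells for Helios instead, so the sorted populations were compared as labelled and not as a loss of Helios. The labels do not say that the 5 samples were taken from different mice, so the p-values rest on a sample spread that may be technical.

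Solute carriers are membrane proteins that move amino acids, sugars, nucleosides, ions, vitamins and metabolites across the plasma membrane and the membranes of organelles. Some are exchangers or facilitators that follow existing gradients, and others use the gradient of sodium or protons to concentrate their substrate. The Slc25 family sits in the inner mitochondrial membrane, the Slc35 family feeds nucleotide sugars into the Golgi and endoplasmic reticulum, and T cells are known to raise several amino acid carriers when they are activated. The RNA level of a carrier does not measure its transport. Of the 208 members, 4 carry an Slc name without being transporters, namely the scaffold protein gene Slc9a3r1, the pseudogene Slc2a4rg-ps, Slc7a6os and Slc4a1ap.

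The libraries held 5016661 to 6948692 reads in Helios+ and 4872348 to 6815851 reads in Helios− samples, recovered from the table as whole reads. Ikzf2 itself had 10367 ± 456 normalized counts in Helios+ libraries and 487 ± 56.5 in Helios− libraries (SD, n = 5 each), with no overlap. Of 7 Treg and CD4 T cell markers, Il2ra and Ctla4 were called higher in Helios+ cells and none lower. In a limma fit with the replicate number as a block, the blocked fit, Cd3e and Cd3g were higher too. Il2ra lost its call without any 1 of Helios+ replicates 2 to 5 or Helios− replicate 4 (limma adjusted p up to 0.0697). Ctla4 lost it without Helios+ replicate 2 or 5 or any Helios− library but replicate 2 (limma adjusted p up to 0.0798). Without both libraries of replicate number 1, Ctla4 was not called either (limma adjusted p = 0.106). None of these fits had the block. With the block and all libraries, the limma adjusted p was 5.15e-05 for Il2ra and 1.70e-05 for Ctla4. Foxp3 had 3570 ± 201 and 3526 ± 226 normalized counts in Helios+ and Helios− libraries. Of 8 B cell markers tested, Ebf1 was lower (4 were with the replicate number as a block) and none higher. Their sums were 1400.1 to 2060.1 normalized counts in Helios+ and 1644 to 2409.6 in Helios− libraries, and the call of Ebf1 was lost in 6 of the 10 fits that each leave out a library (limma adjusted p up to 0.0834). None of 4 CD8 T cell and NK cell markers was called, or 1 lower with the block, and their sums were 369 to 423 in Helios+ and 396 to 479 in Helios− libraries. Of all genes tested, 14.1% were called higher and 10.7% lower, or 18.9% and 18.5% with the block. Genes with at least 1 read numbered 12875 to 12977 in Helios+ libraries, above the 12539 to 12815 of Helios− libraries. The ribosomal precursor Rn45s took 10.04% to 13.8% of the reads in Helios+ and 8.54% to 18.6% in Helios− libraries. The members together took 0.596% to 0.640% of the reads in Helios+ and 0.506% to 0.631% in Helios− libraries.

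Among solute carrier genes, as among all genes, more were called higher than lower in Helios+ cells. At a mean of at least 50 normalized counts, 21 members were called higher and 12 lower, beside 1081 and 1038 of the 8497 genes at this level. The members at this level were not counted, so no share of members called is given for it. Over all genes the directions were thus nearly even at this level. Of the 208 members, 166 had a mean normalized count of at least 10 and were tested, and 42 lay below this level and were not. Among the 166, 44 (26.5%) passed limma's test at an adjusted p under 0.05, beside 24.8% of all 10718 genes tested. The 31 higher members made up 18.7% of those tested, against a background of 14.1%. The 13 lower members made up 7.83%, against a background of 10.7%. The overall share called was thus near that of all genes. Members called higher had a median level of 108 normalized counts and those called lower 215, beside 121 and 407 for all genes called higher and lower. The median log2 change of normalized count + 1 was 0.02 over the members and −0.02 over all genes. With the replicate number as a block, 42 members were higher (25.3%, background 18.9%) and 21 lower (12.7%, background 18.5%), and these included all 44. The block called 37.3% of all genes in either direction. After quantile normalization 29 were higher and 22 lower, so that the share of increases among the calls was 56.9% in place of 70.5%. The backgrounds after quantile normalization were 12.8% and 12.7%. With TMM scaling, limma called 33 members higher, against a background of 14.3%, and 12 lower, against 10.4%. On the recovered reads edgeR called 35 higher (background 14.6%) and 12 lower (10.1%), and DESeq2 35 higher (background 14.9%) and 13 lower (11.7%). With no filter on low values limma called 37 higher (background 13.6%) and 12 lower (8.93%).

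**Figure D1:**
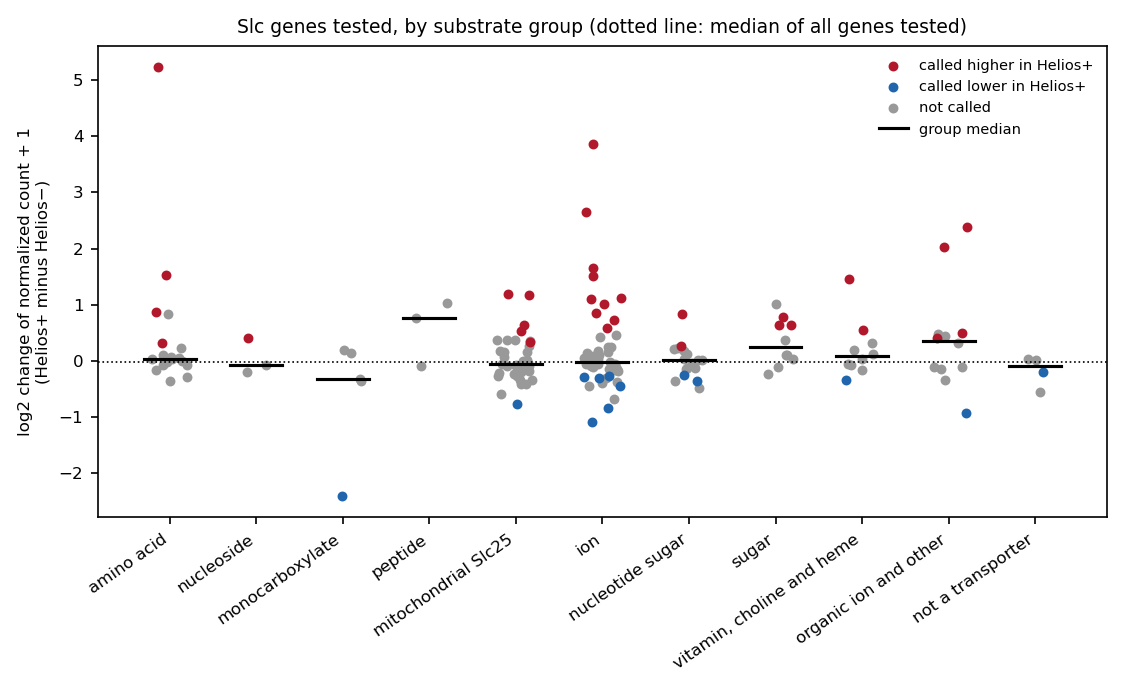
Difference of the mean log2(normalized count + 1), Helios+ minus Helios−, for the 166 members tested, by substrate group. Points are genes, with the colour giving the limma call, the short black line is the group's median and the dotted line is the median of all genes tested. Most points lie near 0, and the points furthest from 0 are increases of amino acid, ion and organic ion carriers and the decrease of Slc16a5 among the monocarboxylate carriers.

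The groups did not overlap for 35 of the 166 members (21.1%, background 19.5%), and each of these 35 was called. Changes of at least 2-fold were called for 14 members in the higher direction, where the background is 5.24%, and for 2 in the lower direction, where it is 1.12%. Over all genes tested, 562 were called higher and 120 lower at this size. The 2 are Slc16a5 and Slc30a4. Several of the larger increases were of genes with low counts, and 33 of the 44 calls had a mean of at least 50 normalized counts. The other 11, with means under 50, are named here because of their change and were chosen after their values were seen. They are Slc7a10, Slc43a3, Slc24a3, Slc39a4, Slc12a8, Slc39a8, Slc40a1, Slc25a13, Slc25a33, Slc22a2 and Slc52a3. All lie in bulk RNA of sorted cells. There a difference in the share of cells that express a gene and a difference in RNA per cell cannot be told apart. Of the 11, Slc7a10, Slc24a3, Slc12a8, Slc22a2 and Slc52a3 had a mean under 10 in Helios− libraries. They reached the mean of 10 needed for testing through their Helios+ libraries. Genes as low in both groups were not tested.

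**Figure D2:**
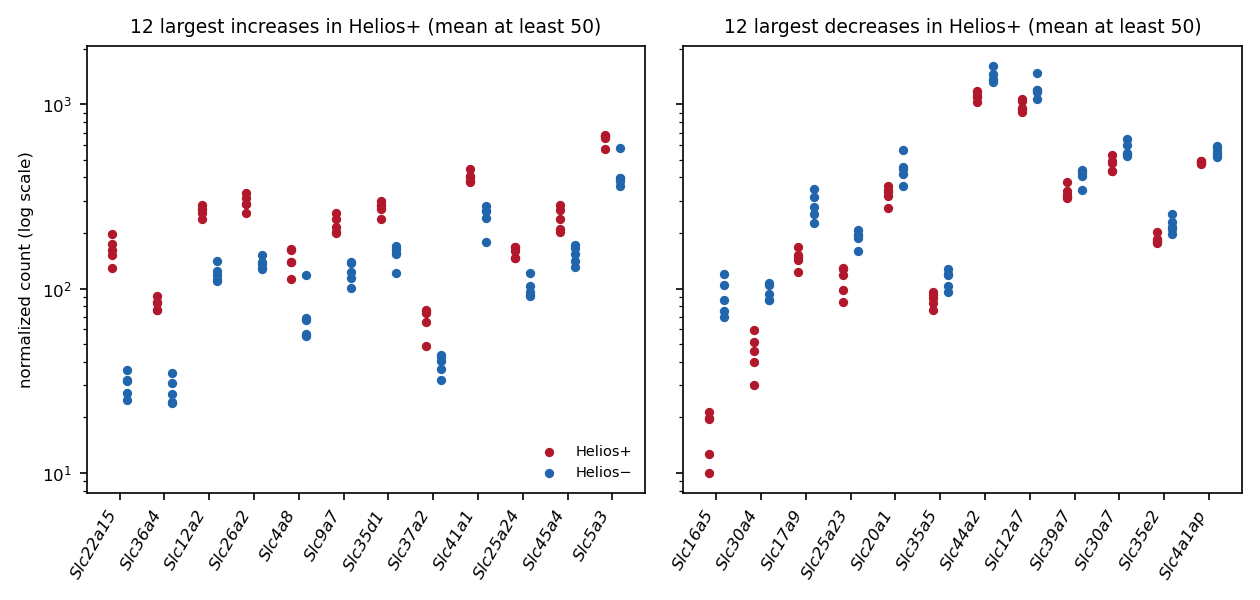
Normalized counts (log axis) in the 5 Helios+ and 5 Helios− libraries of the 12 members with the largest increase and the 12 with the largest decrease in Helios+ cells, among called members with a mean of at least 50. Each point is a library. Slc22a15 stands out on the left with 129.9 to 197 in Helios+ against 24.8 to 36.0 in Helios− libraries, and Slc16a5 on the right with 10.04 to 21.4 in Helios+ against 70.3 to 119.7 in Helios− libraries. Slc4a1ap, the last gene on the right, is not a transporter.

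Among amino acid carriers, 4 of 19 tested members were higher in Helios+ cells and none was lower, against backgrounds of 14.1% and 10.7%. The group's median log2 change was 0.04. The count under a block on the replicate number was 6 higher and 2 lower, against backgrounds of 18.9% and 18.5%. Slc7a10, a carrier of small neutral amino acids such as serine, glycine and alanine, had 54.5, 37.6, 19.7, 37.9 and 42.9 normalized counts in Helios+ libraries, while all 5 Helios− libraries were at 0. These were 196 reads over the Helios+ libraries and 0 over the Helios− libraries. Set against a floor of 3 reads over the Helios− group, the Helios+ level was at least 63.0-fold higher. On the log2 scale the fitted change was 5.23 ± 0.37 (SE; limma adjusted p = 4.92e-08), which depends on the pseudocount of 1. The gene reached the mean of 10 needed for testing through its Helios+ values alone. Slc7a10 lies at chr7:35186385-35201114 on the plus strand of GRCm38, and 17.9% of its exon bases overlap Lrp3 on the other strand.

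Slc36a4, a carrier with high affinity for proline and tryptophan in its human form, had 84.9, 76.9, 83.8, 76.7 and 91.6 normalized counts in Helios+ libraries, against 26.9, 24.3, 24.0, 30.8 and 35.04 in Helios− libraries. Every Helios+ library lay above every Helios− library, and the log2 change was 1.53 ± 0.15 (limma adjusted p = 1.39e-06). The gene lies at chr9:15709738-15743361 on the plus strand. Slc38a1, a sodium-coupled importer of glutamine and other neutral amino acids, rose less. It had 1144 to 1339 normalized counts in Helios+ libraries and 837 to 1068 in Helios− libraries, and a log2 change of 0.33 ± 0.08 (adjusted p = 0.00515, limma). Slc43a3, which belongs to an amino acid carrier family but is known as a purine nucleobase carrier, had 39.0 ± 8.12 and 21.4 ± 7.43 normalized counts in Helios+ and Helios− cells (SD, n = 5 each). The groups overlapped and the call of Slc43a3 was lost after quantile normalization (limma adjusted p = 0.0656) and without both libraries of replicate number 1 (limma adjusted p = 0.0582).

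A few other amino acid carriers known from activated T cells are described next, chosen after their values were seen. Slc7a5 and Slc3a2 encode the light and heavy chain of the exchanger of large neutral amino acids. Slc7a5 had normalized counts of 158 ± 7.23 in Helios+ and 169 ± 28.5 in Helios− libraries, with a 95% interval of the log2 change from −0.31 to 0.16. Slc3a2 had 331 ± 17.5 and 321 ± 32.8 in Helios+ and Helios− libraries, with an interval from −0.13 to 0.22. For Slc7a1, the main carrier of arginine, the interval ran from −0.18 to 0.15. The intervals leave room for modest changes, so none of the 3 is shown to be equal between the populations. Slc1a5, a glutamine exchanger, had 406 ± 59.5 in Helios+ and 355 ± 112 in Helios− libraries, and was called higher in the fit blocked on the replicate number (limma adjusted p = 0.0206) and not without it (0.379). Without Helios− replicate 1, at 539 the highest Helios− library, its limma adjusted p was 0.0215, and without both libraries of replicate number 1 it was 0.0470.

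In a list of genes of amino acid synthesis, stress response and sensing, 5 of 22 tested were higher in Helios+ cells and none lower, beside 14.1% and 10.7% of all genes tested, and the median log2 change was 0.04. In the fit blocked on the replicate number 5 were higher and 2, Lamtor3 and Gcn1l1, were lower (limma adjusted p = 0.0335 and 0.0407). The blocked backgrounds were 18.9% higher and 18.5% lower. Rragd, a GTPase that recruits the growth kinase mTORC1 to the lysosome, had 201 ± 25.5 and 55.4 ± 13.6 normalized counts in Helios+ and Helios− cells (log2 change 1.87 ± 0.17, limma adjusted p = 7.23e-07). The related Rragc, named after its values were seen, had 255 ± 16.3 in Helios+ and 274 ± 40.3 in Helios− cells. It was not called (limma adjusted p = 0.539), and neither were Rraga, Rragb, Mtor, Rptor and Rheb. Psat1, an enzyme of serine synthesis, had 137 ± 9.91 in Helios+ and 81.6 ± 17.1 in Helios− cells. The others called were the serine synthesis enzyme Phgdh, the proline synthesis enzyme Aldh18a1 and the leucine sensor Sesn2, whose call was lost after quantile normalization (limma adjusted p = 0.0907). Over the 10 fits that each leave out a library, the limma adjusted p reached 0.0630 for Phgdh and 0.0520 for Aldh18a1. Both calls were lost without Helios+ replicate 3 or Helios− replicate 2. In the blocked fit of all libraries it was 3.65e-05 for Phgdh and 0.000661 for Aldh18a1 (limma adjusted p).

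Of 5 nucleoside carriers, 3 were tested and 1 was called, or 2 without Helios− replicate 1. The main fit called 24.8% of all genes tested. Slc29a1, the equilibrative carrier that moves adenosine and other nucleosides across the plasma membrane, had 161, 189, 191, 175 and 147 normalized counts in Helios+ libraries, against 123, 132, 130.0, 127 and 131 in Helios− libraries. The groups did not overlap, and the log2 change was 0.41 ± 0.10 (limma adjusted p = 0.00445). Slc28a2, the sodium-coupled importer of purine nucleosides, was the most abundant carrier of the group and the second of all members that are transporters per length. It had 827 ± 57.7 and 872 ± 126 normalized counts in Helios+ and Helios− cells, with a 95% interval of the log2 change from −0.26 to 0.13. Among genes that make or use nucleosides, 5 of 14 tested were higher and 2 lower in Helios+ cells, against backgrounds of 14.1% and 10.7%. Entpd1 (CD39) and Nt5e (CD73), the surface enzymes that turn extracellular ATP into adenosine, were both higher. Entpd1 had normalized counts of 267 ± 29.5 in Helios+ and 112 ± 10.9 in Helios− cells, and Nt5e had 1452 ± 144 in Helios+ and 710.3 ± 121 in Helios− cells. Adk, the kinase that phosphorylates adenosine after uptake, was also higher, at 188 ± 8.28 in Helios+ and 124 ± 15.4 in Helios− cells. Tk1 and Pnp were the other increases, and the adenosine deaminase gene Ada and the nucleotide hydrolase gene Samhd1 were the decreases. After quantile normalization the calls of Pnp and Samhd1 were lost (limma adjusted p = 0.0819 and 0.115). Leaving out Helios+ replicate 1 or 3, or Helios− replicate 2 or 4, also ended the call of Pnp (up to 0.0853).

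Slc17a9, the vesicular carrier that loads ATP into secretory vesicles, moved in the other direction. It had 168, 152, 123, 149 and 143 normalized counts in Helios+ libraries, against 347, 275, 226, 314 and 255 in Helios− libraries. All Helios+ values lay below all Helios− values, and the log2 change was −0.93 ± 0.12 (limma adjusted p = 2.42e-05). The gene lies at chr2:180725263-180742280 on the plus strand.

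The monocarboxylate carriers had 1 call among 5 tested members, or 2 without Helios− replicate 3. The main fit called 24.8% of all genes tested. Slc16a5 was called, and its change was the largest decrease of any member tested. Slc16a5, a member of the family known for carrying drugs such as bumetanide, had 19.9, 10.04, 19.7, 21.4 and 12.7 normalized counts in Helios+ libraries, against 70.3, 75.1, 105, 119.7 and 86.6 in Helios− libraries. Its highest Helios+ value was below its lowest Helios− value, and the log2 change was −2.40 ± 0.23 (limma adjusted p = 1.05e-06). It lies at chr11:115462474-115474398 on the plus strand. Slc16a1, the carrier of lactate and pyruvate, had 156 ± 19.4 and 138 ± 30.6 normalized counts in Helios+ and Helios− cells, with a 95% interval of the log2 change from −0.12 to 0.51. Slc16a6, a carrier of ketone bodies in zebrafish liver, had 121 ± 13.7 in Helios+ and 159 ± 36.8 in Helios− cells. It was called lower only in the blocked fit (limma adjusted p = 0.00609), after quantile normalization (0.0375) and without Helios− replicate 3 (0.0184). Of 6 genes for partners and substrates of these carriers, Ldhb, the lactate dehydrogenase chain of heart, was higher and none was lower. The backgrounds of higher and lower calls were 14.1% and 10.7%. Ldhb had 194 ± 16.2 in Helios+ and 109 ± 23.3 in Helios− cells. Ldha, the other main chain of this enzyme, had 1081 ± 108 in Helios+ and 1251 ± 236 in Helios− cells and was not called (limma adjusted p = 0.256). It was called lower in the blocked fit (0.00779), without Helios− replicate 1 (0.0204) and without both libraries of replicate number 1 (0.0487).

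None of the 3 peptide carriers was called, or 1 without Helios− replicate 1 or replicate 2, and the most abundant of them varied mostly with the replicate number. The main fit called 24.8% of all genes tested. Slc15a2, a proton-coupled importer of dipeptides and tripeptides, had 4.19, 243, 299, 149 and 181 normalized counts in Helios+ libraries and 0, 198, 236, 125 and 125 in Helios− libraries. The libraries with replicate number 1 were near 0 in both populations, and within each of the 5 numbers the Helios+ library was the higher. The replicate number held 95.5% of the sum of squares of the log2 values and the population 2.09%, with the near-0 pair of number 1 included. Of the 8497 genes with a mean of at least 50, Slc15a2 was the only gene whose replicate number 1 libraries were both under 0.1 times the lowest other library. This count was made after the pattern was seen. Slc15a3, a peptide and histidine carrier of endolysosomes, had 15.7 ± 2.93 in Helios+ and 7.99 ± 4.00 in Helios− cells, with an adjusted p of 0.0545 in limma and of 0.0183 with the replicate number as a block. It was also called with a pseudocount of 5, with no filter, without both libraries of replicate number 1, in edgeR and in DESeq2 (adjusted p from 0.0375 to 0.0488). Exons of Slc15a3 share 28.1% of their bases with another gene.

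**Figure D3:**
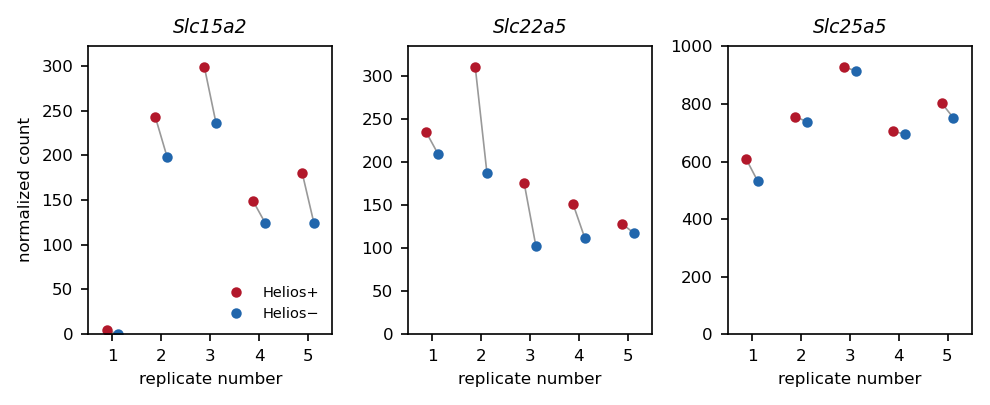
Normalized counts of 3 members by replicate number, with a point for the Helios+ and a point for the Helios− library of each number and a grey line that joins them. Slc15a2 is near 0 at number 1 in both populations, and for Slc25a5 the Helios+ and the Helios− library of a number lie close together.

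Other abundant members varied more with the replicate number than with the population, and were chosen for this after their values were seen. For Slc25a5 the number held 95.3% of the sum of squares and the population 2.50%. Slc22a5, the carnitine importer that feeds fatty acid oxidation, had 235, 311, 176, 152 and 129 normalized counts in Helios+ libraries and 209.7, 187, 103, 112 and 118 in Helios− libraries. The Helios+ library was the higher within all 5 numbers although the groups overlapped. Slc22a5 was called higher in the fit blocked on the replicate number (limma adjusted p = 0.00168) and not without it (0.246).

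In the mitochondrial Slc25 family, 36 of 38 members were tested. In Helios+ cells 5 were higher and 1 was lower, against backgrounds of 14.1% and 10.7%, and the median log2 change was −0.06. With the replicate number as a block, 7 were higher and 3 lower, against backgrounds of 18.9% and 18.5%. Without Helios− replicate 1, 10 were called in all. Carriers that exchange ATP-magnesium for phosphate in response to calcium moved in opposite directions. Slc25a24 had 146, 161, 147, 167 and 168 normalized counts in Helios+ libraries, against 91.4, 95.3, 121, 103 and 92.5 in Helios− libraries. Slc25a23 had 84.9, 119, 98.3, 129 and 127 in Helios+ libraries, against 196, 159, 194, 189 and 208 in Helios− libraries. The groups overlapped for neither, and the log2 changes were 0.65 ± 0.11 for Slc25a24 (limma adjusted p = 0.000269) and −0.77 ± 0.13 for Slc25a23 (limma adjusted p = 0.000292). The third of these carriers, Slc25a25, had 107 ± 19.4 in Helios+ and 136 ± 16.2 in Helios− cells. Its limma adjusted p was 0.0714, 0.0299 after quantile normalization, 0.0257 with the replicate number as a block, 0.0145 without both libraries of replicate number 1, 0.0206 without Helios− replicate 1 and 0.0322 without Helios+ replicate 2.

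Slc25a13, 1 of the carriers that exchange aspartate for glutamate, had normalized counts of 38.8 ± 5.28 in Helios+ and 16.8 ± 3.74 in Helios− cells (log2 change 1.18 ± 0.20, limma adjusted p = 0.000445). Its paralog Slc25a12 was more abundant and not called, with 426 ± 24.2 in Helios+ and 442 ± 36.3 in Helios− cells and a 95% interval of the log2 change from −0.21 to 0.11. Slc25a33, a carrier of pyrimidine nucleotides, had 38.3 ± 8.03 and 16.7 ± 5.77 in Helios+ and Helios− cells, and another gene overlaps 14.9% of its exon bases. Slc25a39, which brings glutathione into mitochondria, had 142 ± 6.12 in Helios+ and 99.0 ± 18.5 in Helios− cells. For both, no Helios+ value lay below a Helios− value.

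Of the ADP/ATP carriers, 1 was called. Slc25a4, the form typical of muscle and heart, had 271, 285, 292, 277 and 291 normalized counts in Helios+ libraries, against 189, 217, 250.1, 215 and 263 in Helios− libraries. This is a log2 change of 0.33 ± 0.09 (limma adjusted p = 0.0153). Slc25a5, the form of dividing cells, had the highest level per length among the members that are transporters. It had 462 and 441 normalized counts per kb of exon in Helios+ and Helios− cells. Transporter genes without an Slc symbol were not ranked. Its log2 change had a 95% interval from −0.21 to 0.36 in the fit without the block, which leaves the replicate number in the spread. The difference between paralogs was not tested. Slc25a37, the iron importer mitoferrin 1, had normalized counts of 163 ± 32.3 in Helios+ and 219 ± 52.6 in Helios− cells, and was called lower in the fit blocked on the replicate number (limma adjusted p = 0.000484) and not without it (0.0755). It was also called without Helios+ replicate 1 (0.0237), without Helios− replicate 3 (0.0300) and without both libraries of replicate number 1 (0.0278). Among 9 tested genes of other mitochondrial gates, Ccdc109b and Efha1, which code for parts of the calcium uniporter complex, were higher and none was lower. The backgrounds of higher and lower calls were 14.1% and 10.7%. In the blocked fit 4 were higher and 1, the outer membrane channel gene Vdac2, was lower (limma adjusted p = 0.0173). Its backgrounds were 18.9% higher and 18.5% lower. Ccdc109b had 98.8 ± 14.8 and 54.5 ± 11.7 normalized counts in Helios+ and Helios− cells.

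**Figure D4:**
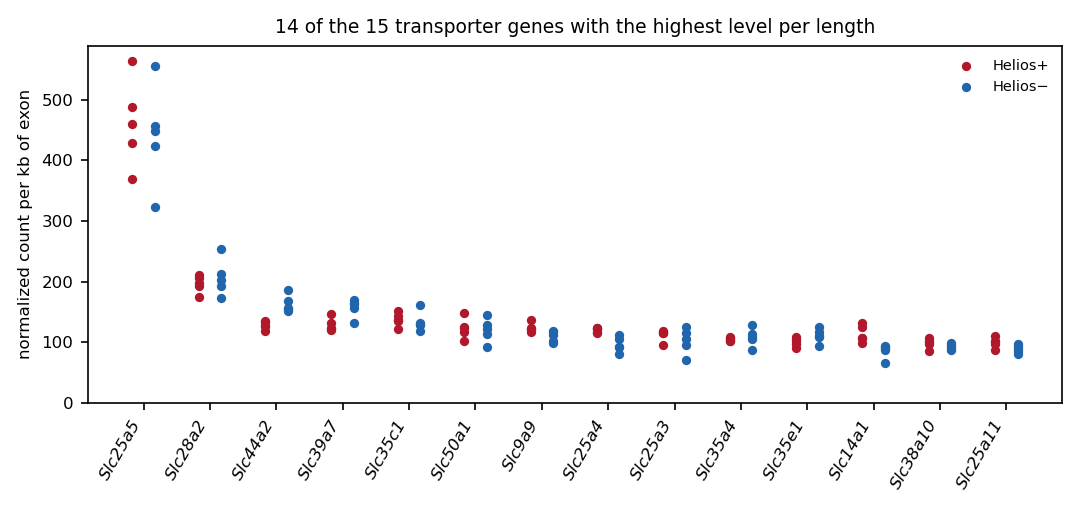
Normalized count per kb of exon in the 5 Helios+ and 5 Helios− libraries of 14 members. They are from the 15 with the highest level per length among the members that are transporters. Each point is a library, and Slc25a5 is above all others. The groups overlap for most of the 14 and not for Slc44a2, Slc25a4 and Slc14a1.

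Of 47 tested ion carriers, the largest substrate group, 10 were higher and 6 lower in Helios+ cells, beside 14.1% and 10.7% of all genes tested. The blocked fit called 13 higher and 6 lower, against backgrounds of 18.9% and 18.5%. The median log2 change was −0.03. The increases were of carriers of sodium, chloride, bicarbonate, sulfate, magnesium, calcium, protons and iron and of 1 zinc importer. The decreases were of 4 zinc carriers, a phosphate importer and a potassium chloride exporter.

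Slc12a2 encodes the cotransporter that brings sodium, potassium and chloride into the cell together. It had 258, 270.1, 237, 269 and 284 normalized counts in Helios+ libraries, against 112, 125, 109, 118 and 140.1 in Helios− libraries. The lowest Helios+ value was above the highest Helios− value, and the log2 change was 1.12 ± 0.09 (limma adjusted p = 2.85e-07). Slc12a7, a cotransporter that moves potassium and chloride out of the cell, had 1071, 1038, 909, 939 and 947 in Helios+ libraries, against 1474, 1164, 1064, 1192 and 1198 in Helios− libraries. Its groups touched at 1 library of each, and the log2 change was −0.31 ± 0.08 (limma adjusted p = 0.0128). Of 5 tested genes for kinases that set the activity of these cotransporters and their partners, 2 were higher and none was lower. The backgrounds of higher and lower calls were 14.1% and 10.7%. Stk39, the kinase that activates the importer, had 488 ± 30.5 in Helios+ and 352 ± 38.7 in Helios− cells, and its partner Cab39 had 1734 ± 159 in Helios+ and 1456 ± 114 in Helios− cells. Leaving out any 1 of Helios+ replicates 3 to 5 or of Helios− replicates 2 and 4 ended the call of Cab39 (limma adjusted p up to 0.0735). In the blocked fit of all libraries Cab39 was called (limma adjusted p = 9.34e-05). The low Wnk4, a kinase upstream of Stk39, had 9.50 ± 2.13 in Helios+ and 15.5 ± 4.52 in Helios− cells and was lower in Helios+ within all 5 replicate numbers (log2 change −0.63, limma adjusted p = 0.129). After quantile normalization it was called lower (log2 change −1.08, limma adjusted p = 0.00985). The far more abundant Wnk1, named after its values were seen, had 6607 ± 266 in Helios+ and 6641 ± 298 in Helios− cells. Wnk1 was not called (limma adjusted p = 0.953). Oxsr1, the paralog of Stk39, was not called (limma adjusted p = 0.143), and was lower in the blocked fit (0.0470).

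Slc26a2, a sulfate carrier known from cartilage, had 288, 286, 311, 257 and 328 normalized counts in Helios+ libraries, against 136, 128, 152, 139 and 129 in Helios− libraries. The groups were well apart, and the log2 change was 1.10 ± 0.09 (limma adjusted p = 2.26e-07). Slc4a7 and Slc4a8, which import sodium with bicarbonate and counter acid load, were both higher. Slc4a7 had 862, 831, 951, 1004 and 999 in Helios+ libraries, against 685, 536, 611, 622 and 657 in Helios− libraries. Slc4a8 had 144 ± 21.3 and 73.3 ± 25.9 in Helios+ and Helios− cells, and its Helios− replicate 1 stood at 118, above the lowest Helios+ value. Slc9a7, a proton exchanger of the Golgi, had 222 ± 24.6 and 123 ± 16.0 in Helios+ and Helios− cells. Slc41a1, a magnesium carrier, had 403 ± 26.7 in Helios+ and 246 ± 40.7 in Helios− cells. The log2 changes were 0.58 ± 0.08 for Slc4a7, 1.00 ± 0.19 for Slc4a8, 0.86 ± 0.11 for Slc9a7 and 0.72 ± 0.11 for Slc41a1, with limma adjusted p of 5.34e-05, 0.000879, 2.95e-05 and 0.000142.

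Slc24a3, an exchanger of sodium for calcium and potassium, was close to absent in Helios− cells. It had 20.96, 40.1, 17.1, 25.3 and 25.5 normalized counts in Helios+ libraries, against 0, 0, 2.18, 1.71 and 0.973 in Helios− libraries. That is 136 reads over the Helios+ libraries and 5 over the Helios− libraries, so the ratio of means of 26.5 rests on few reads. Slc12a8, whose substrate is disputed, had normalized counts of 22.4 ± 7.09 in Helios+ and 6.57 ± 2.66 in Helios− cells.

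Zinc carriers changed in both directions. The Slc39 family brings zinc into the cytosol and the Slc30 family takes it out of the cytosol, into vesicles or across the plasma membrane. Slc39a4 rose to 53.4, 46.8, 59.0, 58.3 and 49.8 normalized counts in Helios+ libraries, against 14.1, 6.35, 16.4, 0.855 and 12.7 in Helios− libraries (log2 change 2.65 ± 0.49, limma adjusted p = 0.00127). Slc39a8 fell to 24.1, 31.8, 21.4, 22.3 and 34.8 in Helios+ libraries, against 48.0, 34.9, 51.3, 50.4 and 57.4 in Helios− libraries (log2 change −0.83 ± 0.19, limma adjusted p = 0.00462). For neither did the groups overlap, though the highest Helios+ and the lowest Helios− value of Slc39a8 nearly met. Slc30a4 had 46.1, 40.1, 59.8, 30.1 and 51.0 in Helios+ libraries, against 86.7, 105, 107, 86.4 and 93.4 in Helios− libraries (log2 change −1.09 ± 0.17, limma adjusted p = 0.000174). It was lower in every Helios+ library.

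Slc30a7, a zinc carrier of the Golgi, and Slc39a7, which releases zinc from the endoplasmic reticulum, were lower by 0.27 ± 0.08 and 0.29 ± 0.09 on the log2 scale. Their limma adjusted p was 0.024 and 0.0207. The groups overlapped for both. Leaving out Helios+ replicate 3 or 5 or Helios− replicate 2 ended the call of Slc30a7 (limma adjusted p up to 0.0690), as did leaving out both libraries of replicate number 1 (0.0542). For Slc39a7 the same held of Helios+ replicates 1, 4 and 5 and Helios− replicates 2, 4 and 5 (limma adjusted p up to 0.0569). Slc39a7 shares 80.7% of its exon bases with the predicted gene Gm20427. Of 6 tested genes for zinc and iron handling that are not carriers, Mtf1, the transcription factor that responds to zinc, was lower at 229 ± 11.95 in Helios+ and 294 ± 30.2 in Helios− cells, and none was higher. The backgrounds of higher and lower calls were 14.1% and 10.7%. In the blocked fit 3 were lower, with Tfrc and Ireb2 added, and Ftl1 was higher (limma adjusted p = 0.00847, 0.0213 and 0.00506). Its backgrounds were 18.9% higher and 18.5% lower.

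Slc20a1, the sodium-coupled phosphate importer, had 362, 333, 272, 343 and 319 normalized counts in Helios+ libraries, against 563, 420.2, 359, 453 and 444 in Helios− libraries. It was lower in Helios+ cells within all 5 replicate numbers although the groups overlapped (log2 change −0.45 ± 0.11, limma adjusted p = 0.00629). Slc40a1, the iron exporter ferroportin, had 29.3, 19.2, 32.5, 35.9 and 23.2 in Helios+ libraries, against 12.9, 4.23, 5.46, 7.70 and 22.4 in Helios− libraries (log2 change 1.52 ± 0.37, limma adjusted p = 0.00638). Macrophages are known for high ferroportin, and of 8 tested macrophage and monocyte markers Csf1r was higher in Helios+ cells, at 61.6 ± 7.30 against 36.9 ± 5.84 in Helios− cells, and none was lower. Lyz2 was higher as well in the blocked fit (limma adjusted p = 0.0175). Its Helios+ replicate 1 stood at 322 normalized counts, against 143 to 177 in the other Helios+ libraries. Cd68 and Itgam had log2 changes below 0 (−0.32 and −0.05) and were not called. The other tested markers had log2 changes above 0. Backgrounds were 14.1% higher and 10.7% lower, or 18.9% and 18.5% in the blocked fit. The summed level of the 12 such markers in the table was 380 to 717 normalized counts in Helios+ and 267 to 462 in Helios− libraries, and none of them was at 0 in all libraries. Their part in the change of Slc40a1 was not tested.

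Promoter sequence was inspected for the called members, with windows from 250 bases before to 50 bases after each RefSeq transcript start (GRCm38.p6). A window was found for 156 members, of which 31 were called, 21 higher and 10 lower. The E-box CACGTG, the same on both strands and bound by factors of the MYC and TFEB type, stood in a window of 4 of the 10 lower and 3 of the 21 higher members. It stood in 18.3% of the 93 members tested and not called, and in 8.09% of all 27025 genes with a window. The core TGGGAA of Ikaros family sites, searched on both strands, stood in 2 of the 10 lower and 5 of the 21 higher members, and in 28.3% of all genes. The element TGATGNAA of amino acid stress factors stood in none of the 31 called members and in 4.51% of all genes. Windows of all members had a median GC content of 61.0%, above the 52.7% of all windows. The motifs were chosen after the values were seen, and a match is a description of letters, not a bound site or a cause. The 250 bases before the start of the 4 lower members with the E-box follow, 5′ to 3′ in the direction of the gene, with each CACGTG in capitals, to show where it stands. Slc20a1 holds it 175 and 22 bases before the start, Slc35a5 90 and 67, Slc39a8 71 and Slc12a7 38 bases before 1 of its starts.
Slc20a1 (chr2:129198523-129198772, plus strand): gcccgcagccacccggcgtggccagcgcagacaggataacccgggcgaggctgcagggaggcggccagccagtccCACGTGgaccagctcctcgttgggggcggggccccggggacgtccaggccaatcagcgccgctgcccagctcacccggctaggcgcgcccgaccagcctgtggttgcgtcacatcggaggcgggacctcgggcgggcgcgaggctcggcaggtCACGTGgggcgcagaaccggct
Slc35a5 (chr16:45158674-45158923, minus strand): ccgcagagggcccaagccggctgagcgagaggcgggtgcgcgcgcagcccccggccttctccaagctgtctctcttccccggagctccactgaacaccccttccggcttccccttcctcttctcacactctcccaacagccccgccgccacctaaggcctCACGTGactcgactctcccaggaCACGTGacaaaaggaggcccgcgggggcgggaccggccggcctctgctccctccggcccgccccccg
Slc39a8 (chr3:135825407-135825656, plus strand): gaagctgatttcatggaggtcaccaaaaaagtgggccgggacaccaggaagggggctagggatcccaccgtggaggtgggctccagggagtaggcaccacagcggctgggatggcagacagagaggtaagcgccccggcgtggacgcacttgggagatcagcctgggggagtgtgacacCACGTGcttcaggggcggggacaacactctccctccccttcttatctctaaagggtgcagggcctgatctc
Slc12a7 (chr13:73763447-73763696, plus strand): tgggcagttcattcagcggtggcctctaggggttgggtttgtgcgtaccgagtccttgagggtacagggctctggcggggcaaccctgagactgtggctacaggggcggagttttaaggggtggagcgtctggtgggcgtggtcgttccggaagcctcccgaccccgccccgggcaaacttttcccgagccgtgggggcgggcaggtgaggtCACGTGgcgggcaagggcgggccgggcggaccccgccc

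Slc22a15 had the smallest p of all members. It encodes a carrier of organic zwitterions and cations of the Slc22 family, and lies at chr3:101855776-101924453 on the minus strand. It had 174, 197, 129.9, 153 and 161 normalized counts in Helios+ libraries, against 31.6, 36.0, 27.3, 24.8 and 32.1 in Helios− libraries. The mean was 5.37-fold higher in Helios+ cells, and the log2 change was 2.38 ± 0.15 (limma adjusted p = 1e-08). Slc22a2, an organic cation carrier best known from kidney, had 17.97 ± 3.62 and 3.92 ± 1.92 normalized counts in Helios+ and Helios− cells (log2 change 2.02 ± 0.34, limma adjusted p = 0.000372). Among the 12 tested carriers of organic ions and other substrates, 4 were higher and 1, Slc17a9, was lower, against backgrounds of 14.1% and 10.7%. Slc14a1, a urea channel of red cells and kidney, had 429, 393, 431, 528 and 501 in Helios+ libraries, against 349, 265, 362, 376 and 367 in Helios− libraries (log2 change 0.41 ± 0.11, limma adjusted p = 0.00981). Of 7 erythroid markers listed, 2 were in the table, and their summed level reached 15.7 in Helios+ and 19.7 in Helios− libraries. Slc10a3, a member of the bile acid carrier family with no known substrate, had 79.9 ± 7.34 and 57.4 ± 14.3 in Helios+ and Helios− cells. Its call was lost when any library other than Helios− replicate 3 or 5 was left out (limma adjusted p up to 0.0960), without both libraries of replicate number 1 (0.0876) and after quantile normalization (0.108).

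Of 10 tested sugar carriers, 3 were higher in Helios+ cells and none lower, against backgrounds of 14.1% and 10.7%. The median log2 change was 0.24, and Slc37a3 was called lower in the blocked fit (limma adjusted p = 0.0101). Slc5a3, the sodium-coupled importer of myo-inositol, had 676, 667, 568, 667 and 653 normalized counts in Helios+ libraries, against 579.8, 398, 395, 382 and 358 in Helios− libraries. The groups overlapped through replicate 3 of Helios+ and replicate 1 of Helios−, and the log2 change was 0.63 ± 0.11 (limma adjusted p = 0.000551). Slc45a4 had 239.8 ± 34.9 in Helios+ and 153 ± 17.1 in Helios− cells, with no overlap. Slc37a2, a carrier of glucose 6-phosphate that macrophages express highly, had 68.0 ± 11.5 in Helios+ and 39.0 ± 4.59 in Helios− cells, beside the macrophage marker sums given above, whose part was not tested.

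Among nucleotide sugar carriers of the Slc35 family, 2 of 17 tested members were higher and 2 lower, against backgrounds of 14.1% and 10.7%. Slc35d1, which brings UDP-glucuronic acid and UDP-N-acetylgalactosamine into the endoplasmic reticulum, had 268, 282, 238, 298 and 285 normalized counts in Helios+ libraries, against 164, 153, 121, 169 and 157 in Helios− libraries. Its groups were far apart, and the log2 change was 0.84 ± 0.10 (limma adjusted p = 1.55e-05). The other 3 calls were small and depended on single libraries. Slc35a5 had a log2 change of −0.36 ± 0.11, Slc35b4 of 0.26 ± 0.09 and Slc35e2 of −0.25 ± 0.09, with limma adjusted p of 0.0293, 0.0438 and 0.0495. Over the 10 fits that each leave out a library, these calls were lost in 6, 8 and 8 fits, with limma adjusted p up to 0.0770, 0.104 and 0.109. Slc35a5 kept its call when Helios+ replicate 3 or 5, or Helios− replicate 1 or 2, was left out, Slc35b4 without Helios− replicate 3 or 5 and Slc35e2 without Helios+ replicate 3 or Helios− replicate 5. The family thus had 1 to 3 calls in such fits. Without both libraries of replicate number 1, the log2 changes were 0.16 for Slc35b4 and −0.20 for Slc35e2, and neither was called (limma adjusted p of 0.180 and 0.155). The adjusted p of Slc35e2 was 0.0508 with TMM scaling in limma, 0.0604 in edgeR and 0.0541 in DESeq2.

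The carriers of vitamins, choline and heme were the single substrate group whose summed level did not overlap, at 1974 to 2096 normalized counts in Helios+ and 2184 to 2452 in Helios− libraries. Slc44a2, a choline carrier-like protein, made up the largest part of this sum. It had 1179.9, 1163, 1097, 1033 and 1108 normalized counts in Helios+ libraries, against 1612, 1455, 1359.8, 1346 and 1317 in Helios− libraries (log2 change −0.34 ± 0.07, limma adjusted p = 0.00164). The other 2 calls of 10 tested members were increases, and the backgrounds were 14.1% higher and 10.7% lower. Slc19a1, the reduced folate carrier, had 104 ± 7.56 in Helios+ and 71.2 ± 7.56 in Helios− cells (log2 change 0.54 ± 0.12, limma adjusted p = 0.00246). Slc52a3, a riboflavin carrier, had 21.7 ± 6.71 and 7.18 ± 2.21 in Helios+ and Helios− cells (log2 change 1.46 ± 0.30, limma adjusted p = 0.00217). The sum over all 208 members overlapped, at 35096 to 35835 in Helios+ and 33472 to 36024 in Helios− libraries. As reads per 100000 reads other than Rn45s, the members had 692 to 714 in Helios+ and 621 to 690.1 in Helios− libraries, so whether their sum overlapped depended on the scale.

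Of the 4 members that are not transporters, Slc4a1ap was called lower, by −0.20 ± 0.06 on the log2 scale (limma adjusted p = 0.0278). Leaving out any 1 of Helios+ replicates 2 to 4 or Helios− replicates 3 to 5 ended its call (limma adjusted p up to 0.0697). Slc9a3r1, a scaffold protein for exchangers and receptors, had the highest level per length of all members and was not called. The 42 members under a mean of 10 included 2 with no read in any Helios− library, named after their values were seen. Slc30a2, a zinc carrier, had 32 reads over the 5 Helios+ libraries, which is at least 9.77-fold above the floor of 3 reads over the Helios− group. Slc2a13, an inositol carrier, had 25 reads over the Helios+ libraries, at least 8.12-fold above the same floor. Such bounds cover counting error only.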

How the data were processed

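RNA was sequenced from 5 Helios+ and 5 Helios− samples of sorted mouse Treg cells, with stranded libraries of total RNA per the labels. The submitters' processing notes name mm10, HISAT2 version 2.0.4, HTSeq and DESeq2, with no role for each. The sources used here give no annotation or strand setting, and genes with overlapping exons may share reads. The authors deposited 1 table of normalized counts, a signal that is never negative. All of its values (100.0%) were whole multiples of 1 read within a tolerance of 0.001, and size factors recomputed from the recovered reads differed from the table's by at most 3.55e-15 in relative terms. The recovered reads ranged from 4872348 to 6948692 per library, which sets the precision for low genes.

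The 10718 genes with a mean of at least 10 were tested with limma (version 3.58.1, R version 4.3.3, trend and robust) after taking log2(normalized count + 1), in a model of the group alone, with Benjamini-Hochberg adjustment over all genes tested at 0.05. This scale understates the change of low genes. Errors are SDs of normalized counts and SEs of log2 changes, n = 5 per group, and changes are Helios+ minus Helios−. The fit was also run on simulated reads. These held no replicate effect, so they cannot show how the fit behaves where libraries share one. Alternatives were pseudocounts of 0.5 and 5, no filter, a mean of at least 50, TMM scaling, quantile normalization, edgeR (version 4.0.16) and DESeq2 (version 1.42.0) on the recovered reads, a replicate block and each library left out. Leaving out both libraries of replicate number 1 was added after seeing the data. The fits that leave out libraries had no replicate block.

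Both groups carry replicate numbers 1 to 5. Deviations from the group means correlated within the numbers at 0.48, 0.19, 0.39, 0.16 and 0.15, all above the minimum of 0.1. Among the pairs of unlike numbers, 2 also exceeded it, at 0.12 for Helios+ 3 with Helios− 5 and 0.11 for Helios+ 5 with Helios− 3. By the matched values the numbers were taken to pair the libraries.

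The members, substrate groups, gene lists and naming rule were chosen with earlier results of these data known. The rule names, in each substrate group, the 4 called members with the smallest p and a mean of at least 50 and the most abundant member, the 12 largest increases and 12 largest decreases, the 3 genes of each pathway list with the smallest p and the 2 most abundant of each marker list. Other names are said to be chosen after their values were seen. Genes named for a call made with the replicate block alone were chosen in that way too. Coordinates and exon lengths are those of GENCODE M21 on GRCm38, which matched 207 members, 1 of them by a synonym, and 18 members share over 10% of their exon bases with another gene. Levels between genes are compared per kb of exon. The values of 1 member are not reported here, though it is counted.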

Additional observations from a re-analysis of the deposited data

Results flagged for a closer look

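Among 80 sets of 5 libraries (40 members in 2 groups), 5 held a library whose gap to the nearest other value was large for the range of its group. Chance alone marks about 1 set in 20. Slc4a8 had 118 normalized counts in Helios− replicate 1, where the other Helios− libraries lay between 55.0 and 69.3. Slc5a3 had 579.8 in the same library, against 358 to 398 in the other Helios− libraries. In Helios+ replicate 3, Slc5a3 had 568, against 653 to 676 in the other Helios+ libraries. Slc14a1 had 265 in Helios− replicate 2, against 349 to 376 in the other Helios− libraries. Slc10a3 had 92.7 in Helios+ replicate 5, against 75.4 to 79.5 in the other Helios+ libraries. Slc4a8, Slc5a3 and Slc14a1 were called higher in each of the 10 fits that leave out a library, and Slc10a3 was not.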

How the results depend on the processing

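Of the 44 members called, 37 were called in each of the 10 fits that leave out a library, and no call of the genes followed through the alternatives changed its sign. Over these 10 fits the counts ran from 2259 to 2907 for all genes called, 1332 to 1614 higher and 927 to 1293 lower. For members they ran from 29 to 35 higher and 9 to 17 lower. By substrate they ran from 4 to 6 for amino acids, 14 to 18 for ions, 6 to 10 for Slc25, 1 to 2 for monocarboxylates and for nucleosides, 1 to 3 for nucleotide sugars, 4 to 5 for organic ions and others, 0 to 1 for peptides, 3 to 4 for sugars and 3 to 4 for vitamins, choline and heme. With the replicate block, limma called 4000 genes, 1979 of them lower, and 21 members lower, with 8 amino acid, 10 Slc25, 2 monocarboxylate and 1 peptide carrier, and it ended no call among the 106 genes followed. Quantile normalization called 22 members lower and 2 monocarboxylate carriers. A mean of at least 50 left 2 amino acid calls, and no filter gave 2 nucleoside calls and 1 peptide call. A pseudocount of 5, edgeR, DESeq2 and leaving out both libraries of replicate number 1 each gave 1 peptide call. Depth limits the 42 members under a mean of 10, which were not tested.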
